A study of Mus musculus with 24 samples.

Results

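The genes described here are the smooth muscle contractile genes of the mammary myoepithelium together with the oxytocin receptor gene: Acta2, Actg2, Myh11, Myl9, Mylk, Cnn1, Tagln and Oxtr. They were taken by symbol from the annotation of a mouse whole-genome Affymetrix array, and 14 of the 34958 probe sets that carry 1 gene name belong to them. Of these 14, 12 passed the filter on low values, and all 8 genes were among the 13486 genes tested. Expression was measured on 24 arrays: 5 mammary adenocarcinomas (A to E) of C57BL6/J mice of genotype Apc+/1572T, and 3 pools of mammary glands (F to H) of C57BL6/J mice of genotype Apc+/+. Each tumour and each pool gave 3 sorted populations of 10000 cells, with 1 array each. Lin- denotes cells without lineage markers, and 2 gates were defined within it: CD29+CD24+, treated by the study as differentiated, and CD29hiCD24+, used by the study to identify stem cells. Normal Lin-, CD29+CD24+ and CD29hiCD24+ groups thus have n = 3 and the corresponding tumour groups n = 5.

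The design limits what each group stands for. Apc+/1572T mice carry, besides a wild-type copy, a targeted allele that shortens the Wnt pathway regulator Apc. Tumour tissue always came with that genotype and normal tissue never did, so the 2 cannot be told apart. The normal samples are pools of glands, the sources used here give neither the animals per pool nor their ages, and RNA from each sort was amplified over 2 labelling cycles before hybridisation. In sorted bulk samples such as these, fewer cells of a type and less RNA per cell cannot be told apart.

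Myoepithelial cells form the outer, basal layer of mammary ducts and alveoli and are at once epithelial, with basal keratins, and contractile. Oxytocin released at suckling binds its receptor on these cells, calcium rises, myosin light chain kinase phosphorylates the regulatory light chain, and smooth muscle myosin slides along actin filaments so that milk is ejected. Many smooth muscle genes are controlled by serum response factor (SRF) and its myocardin-family partners through a promoter element called the CArG box.

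Because SRF acts through the CArG box, promoter windows from 250 bases before to 50 bases after the annotated start were taken from RefSeq (GRCm38.p6), which held entries for 5 of the 8 genes: Acta2, Cnn1, Myl9, Mylk and Oxtr. In each, this start lies inside the gene's outermost bounds. The window of Mylk (from 34784700, gene from 34745199) lies wholly within the gene. So does that of Oxtr (up to 112490075, gene up to 112491035, minus strand). Both Acta2 matches below also lie within its gene, which ends at 34255585. The search covered the CArG box and a near match with 1 C or G in its middle. Both read alike on either strand. A CArG box was present in 1.63% of 32851 windows, a near match in 8.50%, and at least 2 near matches in 0.68%. Acta2, Cnn1 and Myl9 are shown for the elements found or not found, with matches in capitals and each sequence 5′ to 3′ on the gene's strand.
Acta2, chr19:34255438-34255467, minus strand, near match 84 bases before the start: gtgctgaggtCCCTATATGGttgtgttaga
Acta2, chr19:34255388-34255417, minus strand, near match 34 bases before the start: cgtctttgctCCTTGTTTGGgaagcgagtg
Myl9, chr2:156775214-156775407, plus strand, a CArG box 161 and a near match 99 bases before the start: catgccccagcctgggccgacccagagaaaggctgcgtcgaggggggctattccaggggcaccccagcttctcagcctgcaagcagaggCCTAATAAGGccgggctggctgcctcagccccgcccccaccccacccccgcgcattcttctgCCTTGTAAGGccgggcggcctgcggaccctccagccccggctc
Cnn1, chr9:22099003-22099220, plus strand, no match: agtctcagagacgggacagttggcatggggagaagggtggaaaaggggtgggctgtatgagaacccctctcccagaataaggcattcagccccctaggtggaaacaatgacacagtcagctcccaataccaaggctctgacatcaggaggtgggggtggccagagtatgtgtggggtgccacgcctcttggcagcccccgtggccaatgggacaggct
Of the 5 windows, that of Myl9 held a CArG box and that of Acta2 held 2 near matches, while those of Cnn1, Mylk and Oxtr held neither. For Mylk and Oxtr the sequence before the outermost start of the gene was not searched. These are matches of letters in a short window, and no binding was measured.

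Signals are the deposited log2 values, which run from 0.49 to 16.06. Values up to 2.83, the 40th percentile of all values, form a low band in which probe sets have no useful order, and each array had between 37.2% and 41.6% of its values there. Each gene is read from the probe set of its own that was brightest on average, and levels are compared between groups for 1 gene, never between genes. Arrays that stood apart were the normal CD29hiCD24+ array of pool F, with a mean of 9.40 over 10 endothelial markers and 8.04 over 8 leukocyte markers against 6.68 and 7.58, and 3.17 and 3.27, in pools G and H, and the tumour CD29hiCD24+ array of tumour E, in which most of the 8 genes were low. Results were therefore also computed without each of these arrays. The gates were checked against marker lists. In normal tissue, 9 of 11 basal epithelial markers were higher and 7 of 11 luminal markers lower in CD29hiCD24+ than in CD29+CD24+ cells. Over all genes tested, 21.3% were higher and 25.3% lower there. In tumours the basal markers were high in all 3 populations, with array means from 11.51 to 12.44, and 1 of 11 differed between the gates.

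The actins of smooth muscle form the thin filament. Acta2, alpha smooth muscle actin, read 15.15, 15.08 and 15.08 in normal CD29hiCD24+ cells of pools F, G and H, 12.41, 14.42 and 14.11 in normal Lin- cells, and 6.91, 7.96 and 7.02 in normal CD29+CD24+ cells. In tumours A to E it read 13.14, 12.72, 11.91, 12.88 and 11.07 in CD29hiCD24+ cells, 11.81, 12.26, 11.59, 8.24 and 8.33 in Lin- cells, and 9.81, 9.10, 6.86, 8.47 and 8.47 in CD29+CD24+ cells. Every tumour CD29hiCD24+ value lay below every normal one, and no value fell into the low band. Acta2 was 6.77-fold lower in tumour than in normal CD29hiCD24+ cells (log2 difference -2.76 ± 0.83 SE, adjusted p = 0.0119), the smallest difference among the 8 genes. Actg2, the gamma smooth muscle actin typical of visceral muscle, read 10.66, 10.59 and 11.39 in normal CD29hiCD24+ cells, 3.80, 8.47 and 8.37 in normal Lin- cells, and 2.96, 3.09 and 3.10 in normal CD29+CD24+ cells. Tumour values of Actg2 were 4.74, 3.73, 3.83, 4.64 and 3.28 in CD29hiCD24+ cells, and the other 10 tumour arrays lay between 2.78 and 4.32. Of these 15 tumour arrays, 1 was in the low band and none was above 4.74. Actg2 was 114-fold lower in tumour CD29hiCD24+ cells (-6.84 ± 0.68, adjusted p = 1.31e-07).

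**Figure D1:**
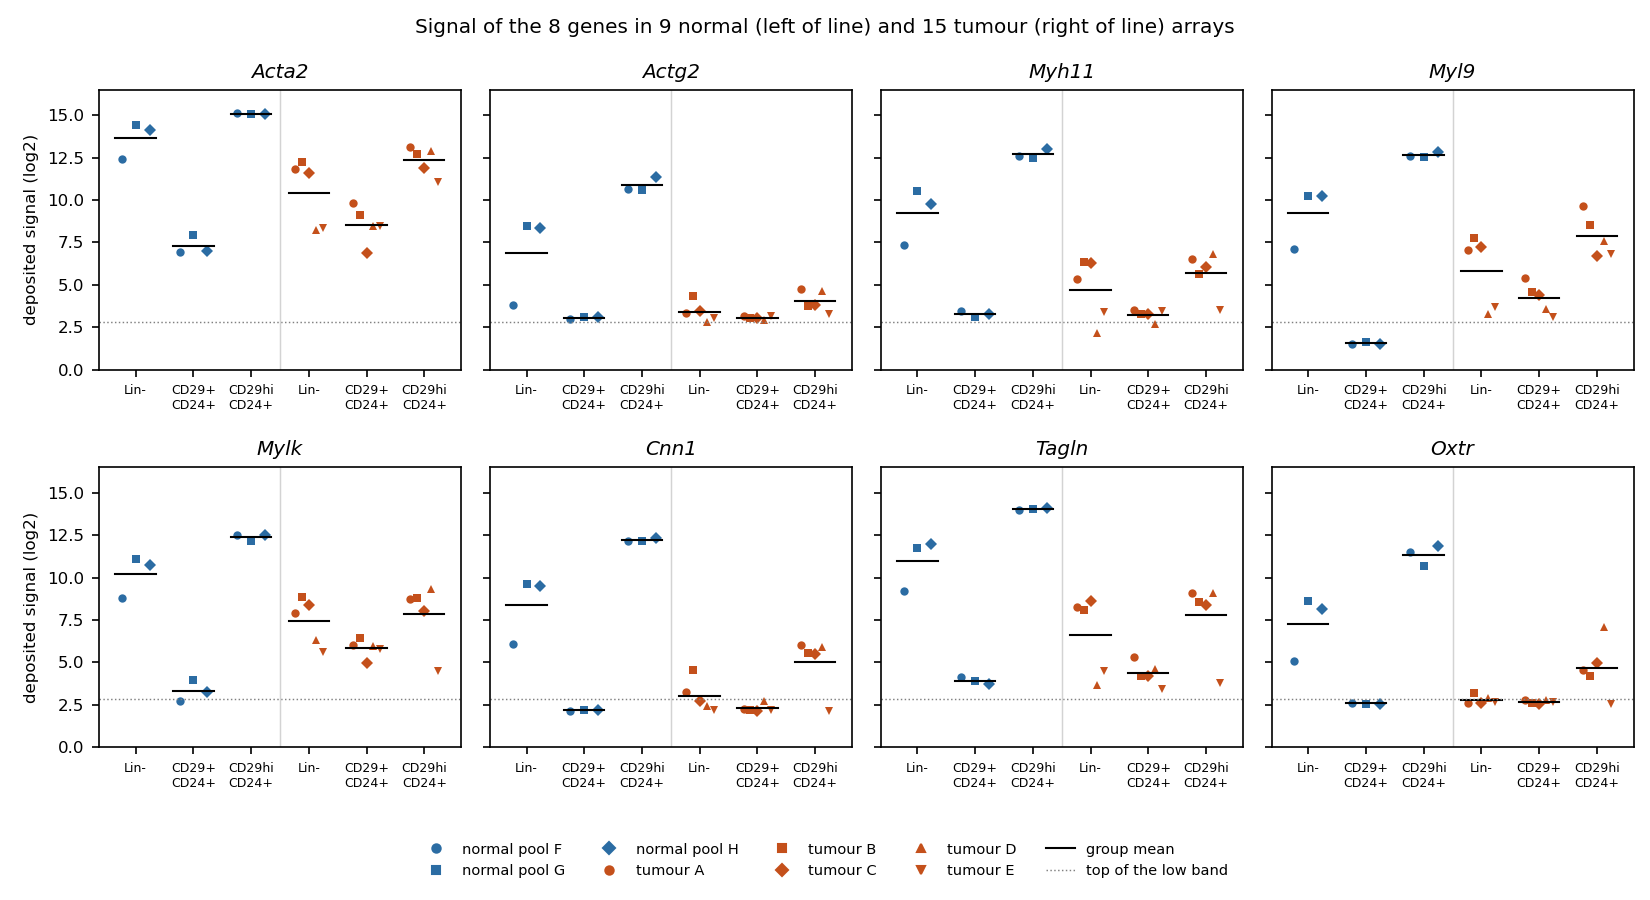
Deposited log2 signal of each gene (1 panel a gene) in the 6 groups; each point is 1 array, the bar is the group mean and the dotted line the top of the low band at 2.83. For each gene the 3 normal CD29hiCD24+ arrays lie above all other arrays, and the tumour CD29hiCD24+ arrays spread widely below them, with tumour E lowest for 7 of the 8 genes.

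The motor and its switch came next. Myh11, the smooth muscle myosin heavy chain, read 12.59, 12.48 and 13.04 in normal CD29hiCD24+ cells, 7.37, 10.56 and 9.79 in normal Lin- cells, and 3.43, 3.11 and 3.29 in normal CD29+CD24+ cells. In tumours A to E, Myh11 read 6.50, 5.67, 6.05, 6.85 and 3.52 in CD29hiCD24+ cells, 5.33, 6.36, 6.30, 2.16 and 3.40 in Lin- cells, and 3.50, 3.26, 3.27, 2.69 and 3.48 in CD29+CD24+ cells. The groups did not overlap in CD29hiCD24+ cells, where tumours were 127-fold lower (-6.99 ± 0.85, adjusted p = 1.65e-06). Without the CD29hiCD24+ array of tumour E, Myh11 was 86.7-fold lower (-6.44). Myl9, the regulatory light chain whose phosphorylation starts contraction, read 12.61, 12.54 and 12.82 in normal CD29hiCD24+ cells, 7.13, 10.26 and 10.27 in normal Lin- cells, and 1.49, 1.65 and 1.5, all in the low band, in normal CD29+CD24+ cells. Its tumour values were 9.65, 8.56, 6.69, 7.59 and 6.83 in CD29hiCD24+ cells, 7.08, 7.79, 7.23, 3.26 and 3.70 in Lin- cells, and 5.42, 4.59, 4.41, 3.58 and 3.12 in CD29+CD24+ cells. Myl9 was 27.7-fold lower in tumour CD29hiCD24+ cells (-4.79 ± 0.96, adjusted p = 0.000448), again without overlap. Mylk, the calcium- and calmodulin-dependent kinase of that light chain, read 12.50, 12.14 and 12.51 in normal CD29hiCD24+ cells, 8.78, 11.11 and 10.73 in normal Lin- cells, and 2.73, 3.94 and 3.27 in normal CD29+CD24+ cells. Tumour arrays A to E gave 8.73, 8.78, 8.0, 9.30 and 4.48 for Mylk in CD29hiCD24+ cells, 7.93, 8.85, 8.40, 6.33 and 5.58 in Lin- cells, and 5.99, 6.46, 4.96, 5.96 and 5.76 in CD29+CD24+ cells. Mylk was 23-fold lower in tumour CD29hiCD24+ cells (-4.52 ± 0.86, adjusted p = 0.000286). In tumour E it was lower there than in the other populations of the same tumour, and without that array the difference was 12.8-fold (-3.68).

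Cnn1 and Tagln encode calponin and transgelin (SM22), actin-binding proteins used as markers of differentiated smooth muscle. Cnn1 read 12.17, 12.13 and 12.34 in normal CD29hiCD24+ cells, 6.08, 9.65 and 9.48 in normal Lin- cells, and 2.14, 2.19 and 2.17 in normal CD29+CD24+ cells. In tumours A to E it read 6.05, 5.55, 5.49, 5.89 and 2.15 in CD29hiCD24+ cells, 3.25, 4.55, 2.69, 2.42 and 2.19 in Lin- cells, and 2.27, 2.18, 2.11, 2.72 and 2.21 in CD29+CD24+ cells. Of the 5 tumours, 4 thus held a Cnn1 signal above the low band in CD29hiCD24+ cells and tumour E did not. The difference from normal was 146-fold (-7.19 ± 0.77, adjusted p = 3.41e-07), and without the array of tumour E it was 88.5-fold (-6.47). Tagln read 14.00, 14.07 and 14.11 in normal CD29hiCD24+ cells, 9.19, 11.76 and 11.99 in normal Lin- cells, and 4.13, 3.89 and 3.70 in normal CD29+CD24+ cells. Its tumour values were 9.07, 8.58, 8.39, 9.11 and 3.78 in CD29hiCD24+ cells, 8.28, 8.06, 8.60, 3.63 and 4.48 in Lin- cells, and 5.28, 4.19, 4.22, 4.59 and 3.44 in CD29+CD24+ cells. Tagln was 77.3-fold lower in tumour CD29hiCD24+ cells (-6.27 ± 1.14, adjusted p = 0.000177), with 4 tumours close together and tumour E far below them, and 38.6-fold lower without the array of tumour E (-5.27).

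Oxtr, the oxytocin receptor, is the input of the system. It read 11.48, 10.68 and 11.89 in normal CD29hiCD24+ cells, 5.05, 8.63 and 8.13 in normal Lin- cells, and 2.61, 2.55 and 2.55 in normal CD29+CD24+ cells. In tumour CD29hiCD24+ cells A to E it read 4.53, 4.19, 4.94, 7.09 and 2.51. Tumour D was the highest and tumour E was in the low band. Lin- cells of tumours A to E gave 2.62, 3.20, 2.59, 2.88 and 2.63, and CD29+CD24+ cells gave 2.78, 2.58, 2.56, 2.75 and 2.68, so that 2 of these 10 arrays were above the low band. Oxtr was 104-fold lower in tumour than in normal CD29hiCD24+ cells (-6.70 ± 0.72, adjusted p = 3.34e-07). The difference was 158-fold without tumour D (-7.31) and 71.6-fold without the CD29hiCD24+ array of tumour E (-6.16). Where values lie in the low band, the size of a difference is limited by that band. Where a whole group lies in it, the difference measured from the band's top at 2.83 is given as a lower bound (at least).

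Counted over the comparison that the study asks about first, 8 of the 8 genes were called lower in tumour than in normal CD29hiCD24+ cells and 0 higher, where 22.9% of all genes tested were called lower and 15.6% higher at an adjusted p under 0.05. The median difference of the 8 genes was -6.48, against -0.01 over all genes. All 8 stayed called without the normal CD29hiCD24+ array of pool F, and all 8 without the tumour CD29hiCD24+ array of tumour E, where the differences ran from -2.44 for Acta2 to -6.64 for Actg2. By the description numbers in the labels, the 3 arrays of tumour E share 1 range with those of the normal pools. Tumours A to D lie in other ranges. With these ranges as a block, the level of tumour against normal therefore rests on the arrays of tumour E. All 8 genes remained called lower in that fit, by -3.91 for Acta2 to -8.62 for Tagln, which is 5.08 times the fold of Tagln given above. For tumours A to D it cannot separate tissue from range.

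In Lin- cells, the less selected fraction, the same direction was seen. All 8 genes were called lower in tumour, from -2.79 ± 0.86 for Mylk (adjusted p = 0.0129) to -5.38 ± 0.77 for Cnn1 (adjusted p = 1.00e-05). Of all genes, 26.6% were called lower and 14.0% higher here. The 8 genes were lower in pool F than in pools G and H within the normal group, and the values of Actg2, Myl9 and Mylk in pool F lay within the tumour range. The tumour group was itself divided: averaged over the 8 genes, tumours D and E read 3.96 and 4.17 and tumours A to C between 6.20 and 6.92. Fibroblast markers averaged 5.30 in Lin- cells of tumour D and between 7.03 and 9.98 in the other tumours, and pericyte and vascular smooth muscle markers 5.42 and 6.18 in tumours D and E and between 7.38 and 8.13 in A to C. The part of these other cell types in the Lin- values was not tested. Myl9 and Mylk lost the call without pool G (adjusted p = 0.0589 and 0.0863) and without pool H (0.0666 and 0.0789), and Myl9 also with only the Lin- groups fitted (0.0717).

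CD29+CD24+ cells gave a different picture. Myl9 and Mylk were called higher in tumour, Myl9 by 2.68 ± 0.96 (adjusted p = 0.0278) and Mylk by 2.52 ± 0.86 (adjusted p = 0.0220), without overlap of the groups. All 3 normal Myl9 values were in the low band, and from its top Myl9 was at least 1.40 higher (2.63-fold). Cnn1 and Oxtr were in the low band on all 8 arrays, so no difference could be measured for them. The other 4 genes were not called, with differences from -0.04 for Myh11 to 1.25 for Acta2 (adjusted p = 0.255), and 0 of 8 were lower. Of all genes, 16.4% were called higher and 27.1% lower. The 95% interval for Actg2 (-1.41 to 1.44) leaves room for changes of more than 1 log2 unit either way, but it uses the spread pooled over all 6 groups. In CD29+CD24+ cells Actg2 lay between 2.90 and 3.19 on all 8 arrays, just above the low band, which limits what could be measured. The calls of Myl9 and Mylk did not hold in every setting. Neither was called without pool F (adjusted p = 0.0627 and 0.0950), without pool H (0.0848 and 0.0771) or with the description-number ranges as a block, where the differences were 1.26 and 0.76 (adjusted p = 0.275 and 0.491). Myl9 was also not called without tumour A (0.0513) or pool G (0.0731), and Mylk was not called when its probe sets were averaged (0.129).

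**Figure D2:**
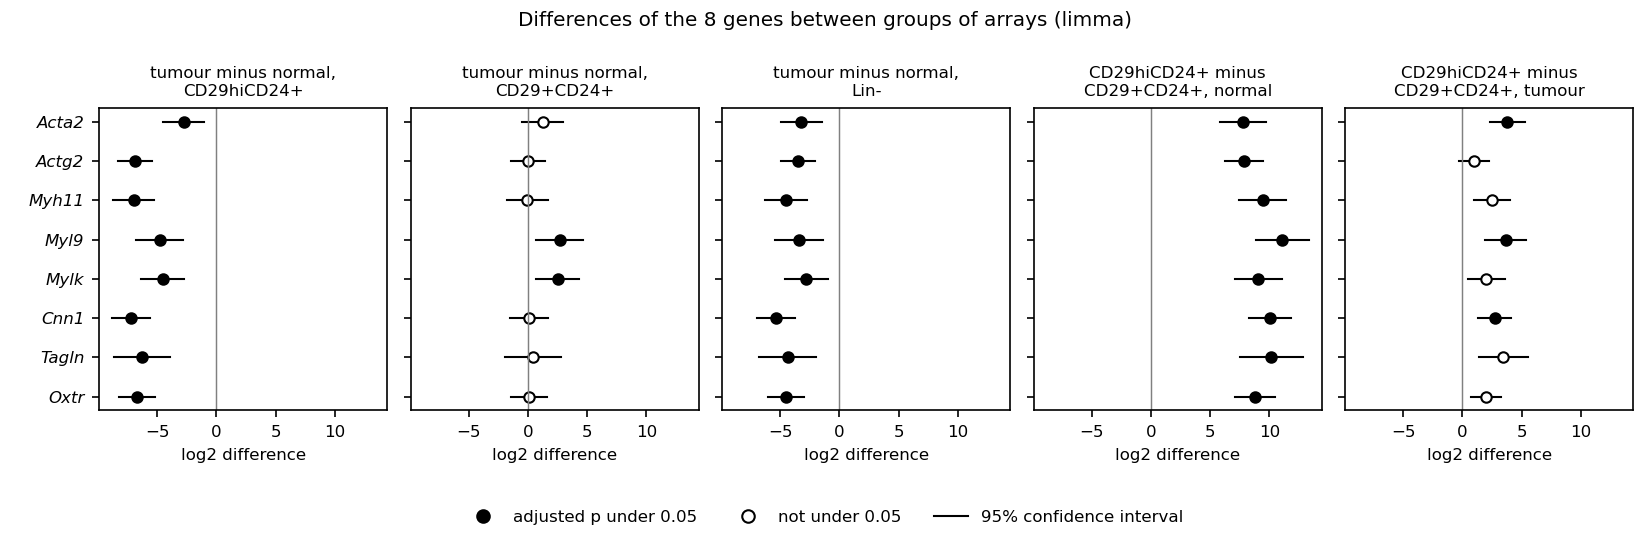
Log2 differences of the 8 genes in 5 comparisons; points are limma estimates, filled where the adjusted p is under 0.05, and lines are 95% confidence intervals. The 8 genes lie left of 0 in tumour against normal CD29hiCD24+ and Lin- cells, close to 0 for 5 genes in CD29+CD24+ cells, and far right of 0 between the gates of normal tissue.

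Between the gates of the normal gland the 8 genes showed their widest range. All 8 were called higher in CD29hiCD24+ than in CD29+CD24+ cells, where 21.3% of all genes were called higher and 25.3% lower. The differences ran from 7.80 ± 0.93 for Acta2 (adjusted p = 7.75e-07) to 11.11 ± 1.07 for Myl9 (adjusted p = 3.99e-08). Myl9, Cnn1 and Oxtr were in the low band on all 3 CD29+CD24+ arrays, and measured from its top they were at least 9.83, 9.38 and 8.52 higher. Among the other 5 genes Tagln had the widest difference (10.15). In each of the 3 pools each gene was higher in CD29hiCD24+ cells, by at least 7.12 log2 units.

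In tumours the same gate difference was smaller and differed between tumours. Acta2 (3.80 ± 0.72, adjusted p = 0.00499), Myl9 (3.64 ± 0.83, adjusted p = 0.0167) and Cnn1 (2.73 ± 0.67, adjusted p = 0.0248) were called higher in CD29hiCD24+ cells. Cnn1 and Oxtr were in the low band on all 5 tumour CD29+CD24+ arrays, and from its top they were at least 2.20 and 1.82 higher. Tagln (3.44, adjusted p = 0.0522), Myh11 (2.47, 0.0590), Oxtr (1.98, 0.0748), Mylk (2.03, 0.126) and Actg2 (0.98, 0.394) were not. Few genes of any kind separated the gates of tumours, with 2.25% called higher and 1.94% lower, against 3 of 8 and 0 of 8 here. Within tumours, Acta2 and Myl9 were higher in CD29hiCD24+ cells of 5 of 5 tumours, by 2.59 to 5.05 and by 2.27 to 4.23. Actg2, Myh11 and Tagln were also higher in 5 of 5, with the smallest step at 0.03 for Myh11, and Cnn1, Mylk and Oxtr in 4 of 5, with tumour E the exception. The populations of a tumour are paired, and with the tumour or pool as a random block 7 of 8 genes were called higher, among them Tagln (adjusted p = 0.00829), Myh11 (0.0156), Oxtr (0.0233) and Mylk (0.0332) but not Actg2 (0.237). The share of all genes called in either direction rose with that block too, from 4.19% to 13.5%. Leaving out the CD29hiCD24+ array of tumour E also gave 7 genes. Leaving out a whole tumour gave between 1 gene, Acta2, without tumour B and 6 genes without tumour E, and Cnn1 lost its call when any 1 of tumours A to D was left out.

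**Figure D3:**
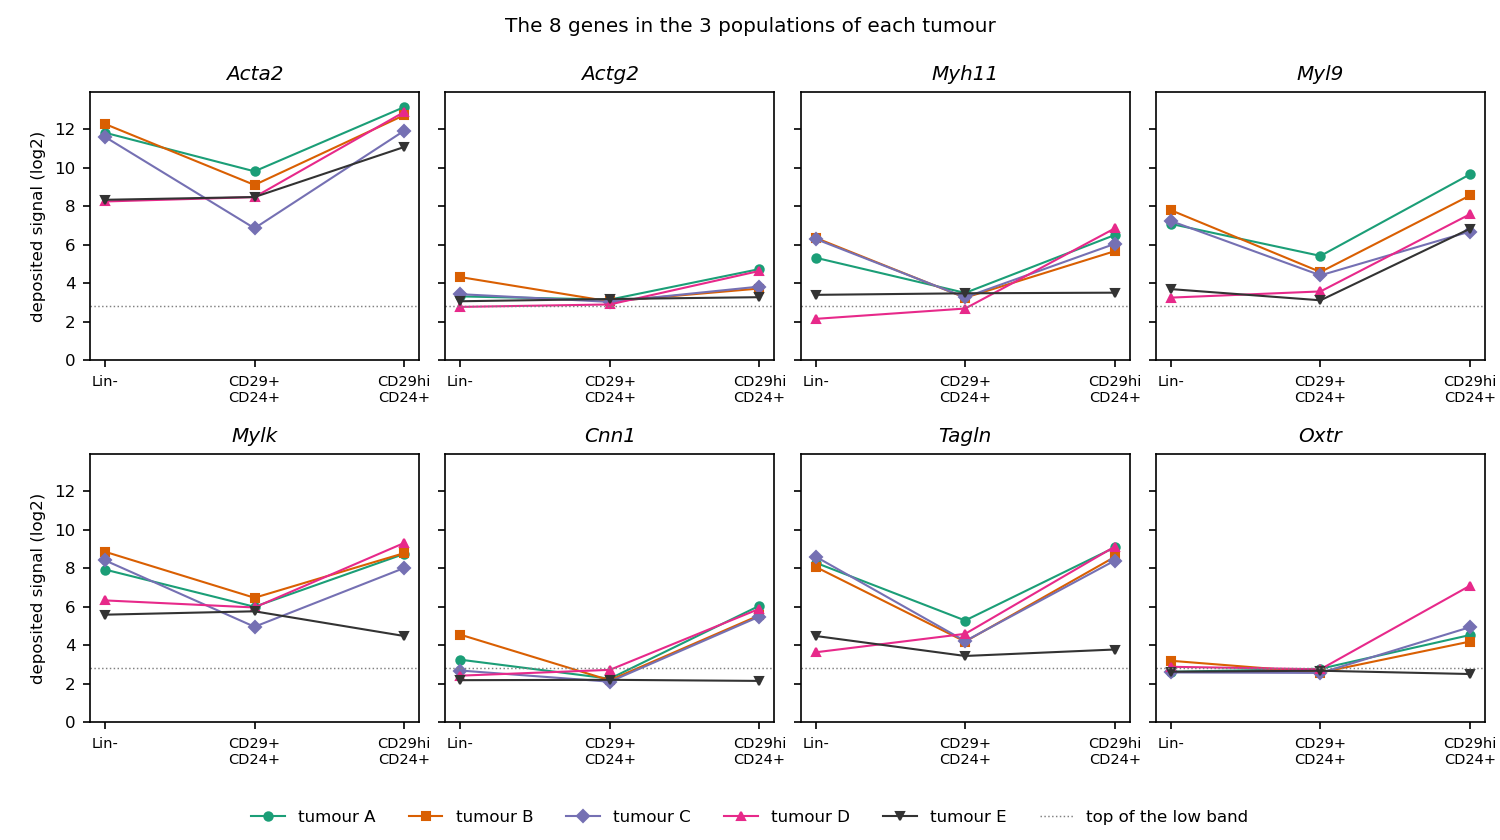
Deposited log2 signal of the 8 genes in the 3 populations of each tumour, 1 line a tumour, with the low band's top dotted. Tumours A to D rise from CD29+CD24+ to CD29hiCD24+ for every gene, whereas tumour E is flat or falls for Cnn1, Mylk and Oxtr and rises for Acta2 and Myl9.

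The difference between the 2 gate differences was tested directly. It was called for all 8 genes, with the step from CD29+CD24+ to CD29hiCD24+ smaller in tumours by 4.0 ± 1.18 for Acta2 (adjusted p = 0.00936) to 7.47 ± 1.35 log2 units for Myl9 (adjusted p = 0.000181). For Myl9, Cnn1 and Oxtr the size of the normal step, and so of this difference, depends on the low band. Over all genes, 19.8% were called in this direction and 22.2% in the other. The smaller step was not particular to the 8 genes. Of 11 basal epithelial markers, 8 were called in this direction and 0 in the other. Their median was -9.14, against -6.90 for the 8 genes. Of these 11 markers, 4 averaged in the low band in normal CD29+CD24+ cells, so their sizes depend on it too.

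Both gates lie within the Lin- fraction, whose levels lay between them in normal tissue. Normal CD29hiCD24+ cells had more Oxtr (4.08 ± 0.80, adjusted p = 0.000388), Actg2 (4.0), Cnn1 (3.81), Myh11 (3.47) and Myl9 (3.44) than normal Lin- cells, so that 5 of 8 were called higher and 0 lower, beside 17.0% and 23.2% of all genes. Tagln (3.08, adjusted p = 0.0599), Mylk (2.18, 0.0791) and Acta2 (1.45, 0.238) missed the threshold, although their groups did not overlap either. With the pool as a block, Mylk (0.0285) and Tagln (0.0190) were called as well, and without pool F, Myh11 (0.102) and Myl9 (0.186) were lost and 3 genes were called. Normal CD29+CD24+ cells had less of all 8 genes than Lin- cells, from -3.83 ± 0.77 for Actg2 (adjusted p = 0.00293) to -7.67 ± 1.07 for Myl9 (adjusted p = 5.98e-05), or at least 6.39 lower for Myl9 from the top of the low band, where 3.68% of all genes were called lower and 0.512% higher. Actg2 lost this call without pool G (0.0819) or H (0.0874).

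In tumours neither gate differed from Lin- cells by the same test. Of the 8 genes, 0 were called between CD29hiCD24+ and Lin- cells, with differences from 0.44 for Mylk to 2.05 for Myl9, beside 3.74% of all genes called higher and 4.63% lower. At an unadjusted p, Oxtr (0.00687), Cnn1 (0.00694), Acta2 (0.0160) and Myl9 (0.0221) were under 0.05. The same 4 genes were called higher with the tumour as a block (adjusted p = 0.0240, 0.0194, 0.0343 and 0.0351), where 17.8% of all genes were called in either direction against 8.36% without it, and Cnn1 and Oxtr were called without the CD29hiCD24+ array of tumour E, without tumour E as a whole or without pool F. Between CD29+CD24+ and Lin- cells of tumours 0 of 8 were called, with differences from -0.11 for Oxtr to -2.27 for Tagln, and 0.00742% of all genes were higher and 0.208% lower. There, Acta2 (0.0154), Tagln (0.0323) and Mylk (0.0453) were under 0.05 at an unadjusted p.

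The order of the group means was nearly the same for each gene. Normal CD29hiCD24+ cells came first, above every other array, followed by normal Lin-, tumour CD29hiCD24+ and tumour Lin- cells and then by the CD29+CD24+ populations. Normal Lin- and tumour CD29hiCD24+ cells overlapped for Acta2, Actg2, Myl9, Mylk and Oxtr and not for Cnn1, Myh11 and Tagln, and tumour CD29hiCD24+ and Lin- cells overlapped for all 8. The last place was held by normal CD29+CD24+ cells for 7 genes, apart from the tumours for Myl9 and Mylk only, and by tumour CD29+CD24+ cells for Myh11.

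Several probe sets exist for 4 of the genes, and they did not always tell the same story. Acta2 levels above rest on 1416454_s_at, a name whose suffix marks probes that can match more than 1 transcript. A further Acta2 probe set, 1444105_at, read 6.90, 7.26 and 7.39 in normal CD29hiCD24+ cells and at most 3.23 in all other groups. By this probe set Acta2 was also lower in tumour CD29hiCD24+ cells (-4.22 ± 0.09, adjusted p = 5.27e-18, over all kept probe sets). It showed no step between the gates of tumours (-0.02 ± 0.08, adjusted p = 0.974) and no difference between tumour and normal Lin- cells (0.01 ± 0.09, adjusted p = 0.922). In these groups, however, it read only 2.91 to 3.23, just above the low band, and could not show either difference. This holds also in normal Lin- cells, where 1416454_s_at read 12.41 to 14.42. Mylk has 1425505_at besides 1425506_at. It gave a larger difference between tumour and normal CD29hiCD24+ cells (-7.03 ± 0.74, adjusted p = 3.21e-07) and a smaller one in CD29+CD24+ cells (0.58 ± 0.74, adjusted p = 0.599), where 1425506_at was called higher. The weak probe sets 1425504_at of Mylk and 1418122_at of Myh11 rose above the low band in normal CD29hiCD24+ cells alone, to 3.16 to 4.79 and to 4.84 to 6.70. The probe sets that failed the filter were 1456658_at of Acta2, over the low band in 2 arrays, and 1426000_at of Oxtr, over it in 0 arrays.

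**Figure D4:**
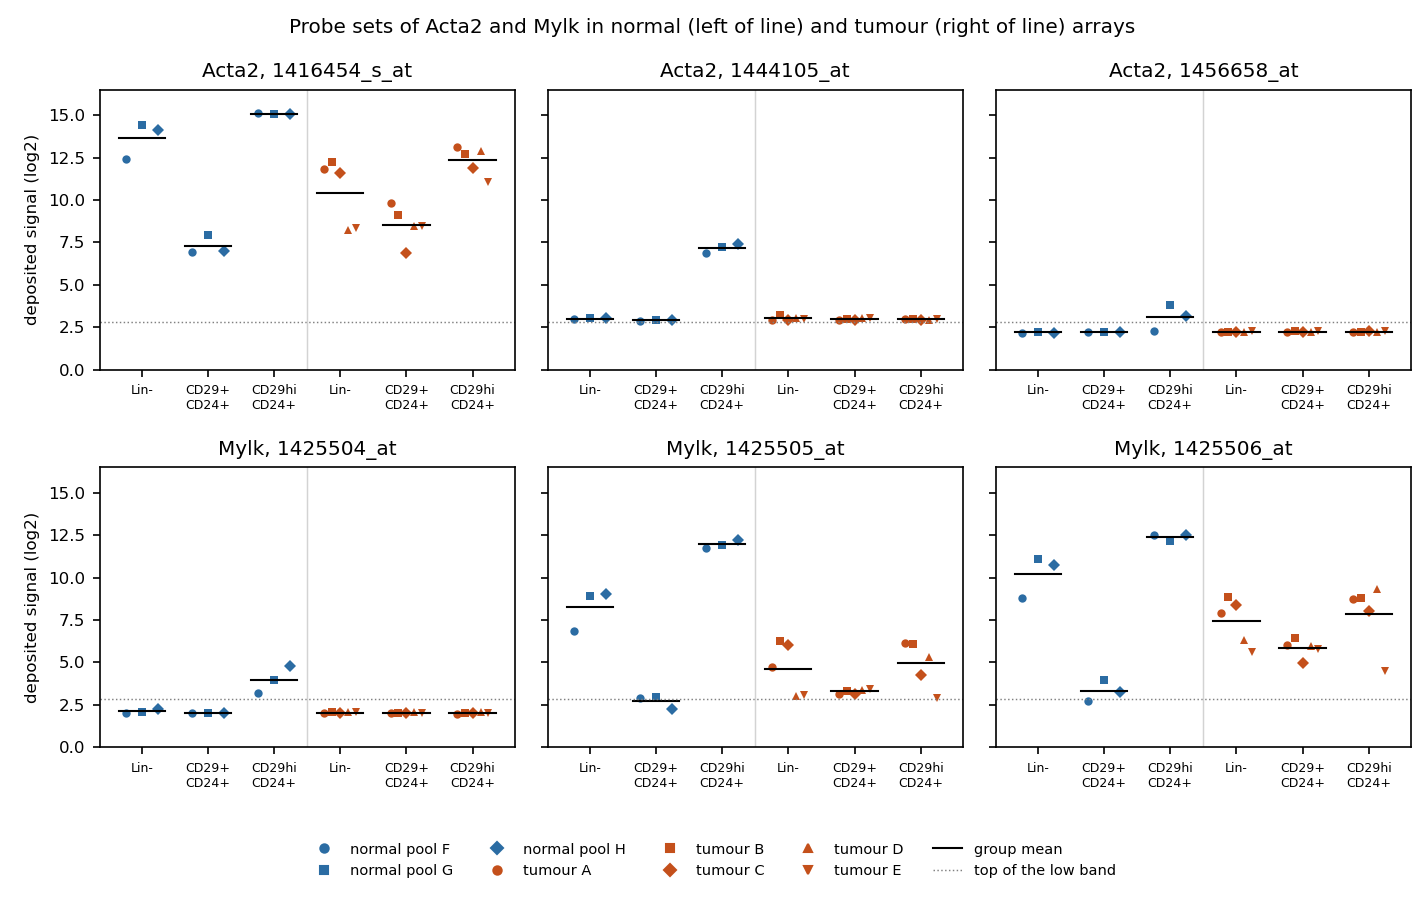
Deposited log2 signal of the 3 probe sets of Acta2 and the 3 of Mylk by group; points are arrays, bars are group means and the dotted line is the top of the low band. In normal CD29hiCD24+ cells 1416454_s_at, 1444105_at, 1425505_at and 1425506_at lie between 6.90 and 15.15, whereas 1425504_at and 1456658_at stay at or below 4.79 with 1 array of the latter in the low band.

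Other genes of the contractile system were read from lists chosen with earlier results of these data known, so they describe and do not test the pattern. Over all genes, 22.9% were called lower and 15.6% higher in tumour CD29hiCD24+ cells. Of 14 measured genes of the contractile apparatus, 13 were called lower there and 0 higher (median -1.95). They included Pgm5, an adherens junction protein of muscle (-7.06 ± 0.39, adjusted p = 1.12e-11), Synpo2, an actin-bundling protein (-6.28 ± 0.75), Tns1, which ties actin to integrins (-4.32 ± 0.34), and Lmod1, a smooth muscle actin nucleator (-3.98 ± 0.19). Synpo2 and Lmod1 were in the low band on all 5 tumour arrays, which gives bounds of -6.10 and -2.94. The mean of Lmod1 was above the low band in normal CD29hiCD24+ cells alone (5.76). The filter on low values may have kept it through that group only. In that case its calls here and between the normal gates were fixed in advance and add nothing to the counts. Of the 14, Actn1 (-0.31, adjusted p = 0.0831) was the one not called. All 14 were higher in CD29hiCD24+ than in CD29+CD24+ cells of normal tissue (median 4.53), and 1 of 14, Actn1 (0.64, adjusted p = 0.00378), in tumours. The shares of all genes called higher were 21.3% in normal tissue and 2.25% in tumours. In CD29+CD24+ cells 4 were higher in tumour, Tpm2 (5.26), Cald1 (4.50), Flna (2.79) and Smtn (2.66), and Csrp1 (-1.01) was lower. The shares over all genes there were 16.4% higher and 27.1% lower. Tpm2 encodes a tropomyosin and Cald1 caldesmon, both of which lie along the actin filament.

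Around Myl9 and Mylk, the genes that set light chain phosphorylation were mixed. Of 13 measured, 7 were called lower and 2 higher in tumour CD29hiCD24+ cells, beside 22.9% and 15.6% of all genes. Prkg1, the cGMP-dependent kinase (-5.49 ± 0.61, adjusted p = 5.28e-07), Ppp1r14a, an inhibitor of myosin phosphatase (-4.88 ± 0.48), and the phosphatase subunits Ppp1r12c (-2.75 ± 0.26) and Ppp1r12a (-1.60 ± 0.19) fell, while Rhoa (0.70 ± 0.15) and Rhob (0.67) rose. Of 17 measured genes downstream of Oxtr, 9 were lower and 3 higher, beside the same shares. In both lists the part called higher was close to the share over all genes. The lower ones included Cacna1c, the pore of the L-type calcium channel (-4.21 ± 0.37, adjusted p = 2.38e-08), Prkca (-3.25), Plcb1, a phospholipase driven by Gq proteins (-3.21), and Grk5, a kinase of G protein-coupled receptors (-3.06). Ppp1r14a and Cacna1c were in the low band on all 5 tumour arrays, which gives bounds of -3.84 and -3.96. Grk6, Plcb3 and Itpr3 were the higher ones. Of 8 measured genes of the SRF pathway, 4 were lower and 0 higher, beside the same shares. The lower ones were Tgfb1i1 (-2.0 ± 0.29), Fhl2 (-1.31), Srf itself (-1.07 ± 0.20, adjusted p = 0.000285) and Mrtfb (-0.59). Srf was also lower in tumour Lin- (-1.21) and CD29+CD24+ cells (-0.96).

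Isoforms of the same proteins that are not specific to muscle were read as well. Of 13 non-muscle counterparts, 2 were lower in tumour CD29hiCD24+ cells, Myh10 (-2.18 ± 0.35, adjusted p = 4.55e-05) and Cnn3 (-0.70), and 2 higher, Tagln2 (0.57) and Actb (0.28), with a median of -0.19, beside 22.9% of all genes lower and 15.6% higher. In CD29+CD24+ cells 5 of 13 were lower and 2 higher, beside 27.1% and 16.4% of all genes, and the lower ones included Myh14 (-1.70), Myl6 (-1.42) and Cnn3 (-1.37). In Lin- cells 5 were lower, Myl6 (-1.71), Myh14 (-1.68), Myh9 (-1.64), Cnn3 (-1.25) and Myl12b (-0.95), and 0 higher, beside 26.6% and 14.0%. Their mean over the list lay between 12.53 and 12.59 in normal and between 11.87 and 11.99 in tumour Lin- arrays, without overlap.

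Basal epithelial markers took a different course from the 8 genes in tumour against normal cells of each population. In tumour CD29hiCD24+ cells 6 of 11 were called higher and 0 lower, among them Itgb4 (3.36 ± 0.33, adjusted p = 1.16e-07), Col17a1 (1.42), Krt5 (1.40) and Trp63 (1.21), the master factor of basal epithelium. In CD29+CD24+ cells 10 of 11 were higher in tumour, with a median of 8.96, Krt5 by 11.04 ± 0.46 and Trp63, in the low band on all 3 normal arrays, by at least 10.20, where the median of the 8 genes was 0.28, or 0.23 with low-band groups set at the top of the band. In Lin- cells 9 of 11 were higher (median 3.07) and the 8 genes lower (median -3.93). The shares of all genes called higher were 15.6% in CD29hiCD24+, 16.4% in CD29+CD24+ and 14.0% in Lin- cells. The basal markers of tumour E averaged 11.90 in CD29hiCD24+ cells, where the other tumours had 11.99 to 12.44 and where the 8 genes averaged 4.70 in tumour E and 6.91 to 7.92 in the others. The difference between the 2 lists was not tested.

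**Figure D5:**
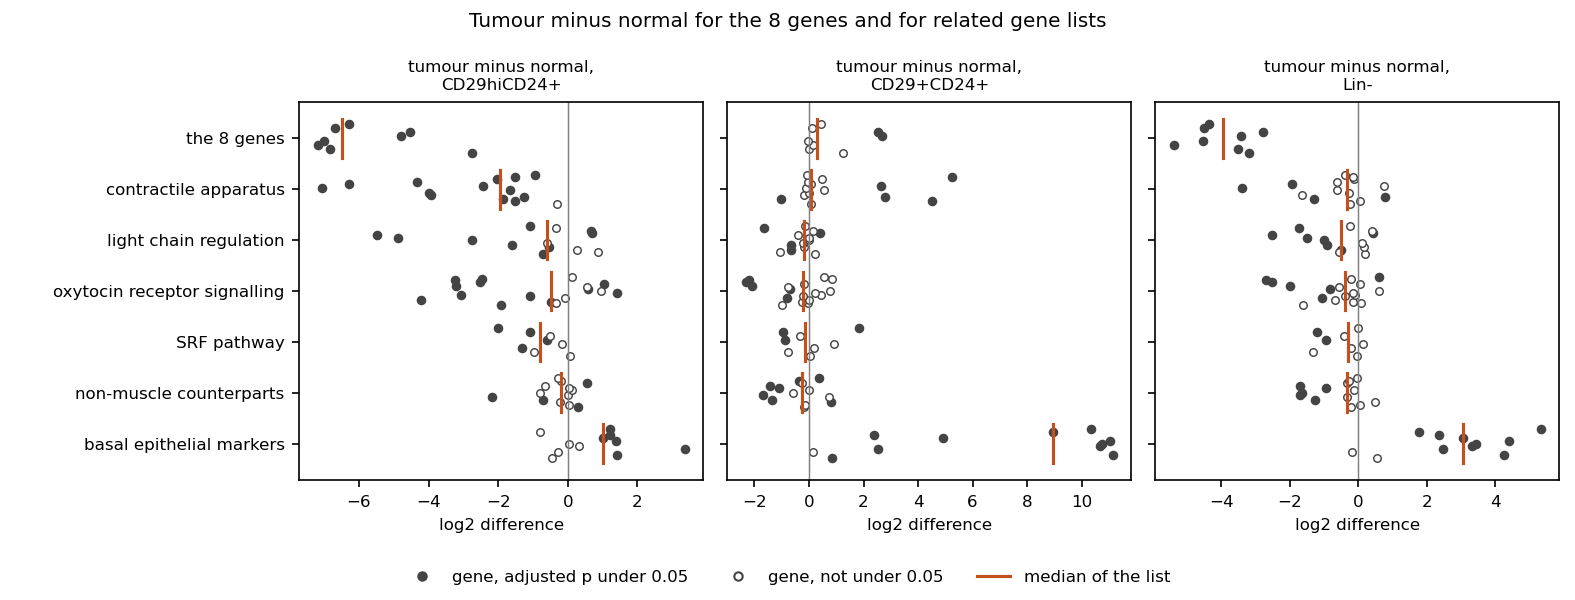
Tumour minus normal log2 differences in the 3 populations for the 8 genes and 6 lists; each point is a gene, filled where the adjusted p is under 0.05, and the bar is the list median, with a separate horizontal scale in each panel. The 8 genes and the contractile apparatus lie left of 0 in CD29hiCD24+ cells, where basal epithelial markers lie mostly right of 0, with medians of -6.48, -1.95 and 1.01.

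Pericytes and vascular smooth muscle also contain contractile proteins. Of 8 measured markers of these cells, 3 were lower in tumour than in normal CD29hiCD24+ cells, Mcam (-4.13), Pdgfrb (-3.65) and Rgs5 (-3.33), and 3 higher, Ndufa4l2 (5.0), Cspg4 (3.81) and Steap4 (1.17). Over all genes, 22.9% were lower and 15.6% higher. The mean of these 8 markers lay between 5.96 and 6.41 in normal and between 5.58 and 6.50 in tumour CD29hiCD24+ arrays, with Cspg4 and Ndufa4l2 in the low band in the former, so that they were at least 3.64 and 4.05 higher. Endothelial markers were lower in tumour CD29hiCD24+ cells for 9 of 10 genes, with means of 6.68 to 9.40 in normal and 3.42 to 4.21 in tumour arrays. Cdh5, Cldn5 and Kdr were in the low band in the tumour group. The part of these cells in the differences of the 8 genes was not tested. Leaving out the array of pool F cannot test it. The CD29hiCD24+ arrays of pools G and H still averaged 6.68 and 7.58 over the endothelial markers. RNA shortening, read as the 3′ minus 5′ signal of the actin control, was 2.53 ± 0.35 (SD) in normal and 2.03 ± 0.30 in tumour CD29hiCD24+ arrays, and all 8 genes remained called with it as a covariate.

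The 8 genes varied together. Over the 24 arrays the 28 pairs had a median Pearson correlation of 0.93 (0.79 to 0.98), which contains the differences between groups. With the 6 group means removed the median was 0.78 (0.32 to 0.91). Over the 15 tumour arrays alone, again with group means removed, it was 0.74 (0.06 to 0.92). Myl9 with Oxtr was the lowest pair there, and Acta2 with Oxtr had 0.27. These are descriptions over arrays that share tumours and pools. By their correlation with the mean of the 8 genes, the most similar of the other genes were Niban1 (0.963), Prkg1 (0.961), Cxcl14 (0.952), Scn7a, Reln, Selenom, Fmod, Gfra2, Pkia and Samd4 (0.930). With group means removed they were Prkg1 (0.825), Tns3, Itga8, Dll1 and Sema6d (0.813). With group means left in, Tns3 had a correlation of only 0.13. Taken singly, Acta2 was most similar to Myl9 (0.966), Cnn1 to Oxtr (0.979), Tagln to Myh11 (0.976), Mylk to Tagln (0.955), Myh11 to Prkg1 (0.979) and Actg2 to Il17b (0.985).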

How the data were processed

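Per the labels' protocols, RNA from 10000 sorted cells per sample was extracted on micro columns and labelled in 2 cycles. The values are log2 signals as the authors deposited them, in 1 table of 45101 probe sets by 24 arrays. The submitters' processing notes name RMA, GCRMA and Partek, with version, role and order not given in the sources used here. Depth has no meaning for arrays, and the number of arrays limits the precision. Probe sets were named through the platform annotation, which is old: 34958 have 1 gene name, 932 several and the rest none, and updating through gene identifiers changed 0 names.

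Probe sets over the 40th percentile in at least 3 arrays were kept (24288), and the one with the highest mean stood for its gene. limma 3.58.1 (R 4.3.3) was fitted to the 6 group means over all 24 arrays with a trended prior. Differences have standard errors, p-values were adjusted by Benjamini-Hochberg over 13486 genes, and calls are at an adjusted p under 0.05. Against a group in the low band on every array, the distance of the other group's mean to the band's top (2.83) was taken as a lower bound. The 10 comparisons share arrays. Tumours are called independent by the study. The p-values rest on a spread pooled over the arrays of all 6 groups, and without the block the 3 populations of a tumour or pool count as separate. Tested on simulated data for tumour against normal CD29hiCD24+ cells with 13486 genes, the fit called 51 of 100 genes shifted 1 unit on the log2 scale, and 87 of 100 for a shift of 2. The simulated noise was independent between arrays and equally wide in every group. The measured arrays are neither, so these rates need not hold for them.

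Populations with the same letter come from the same tumour or pool by their titles, except for 2 arrays without a letter, which were assigned to pool H because no other place was free. Deviations from group means correlated with a median of 0.58 within tumours (15 pairs, 0.36 to 0.74) and 0.14 within pools (9 pairs, -0.04 to 0.32). The block fit used a correlation of 0.32.

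The genes and the 12 lists (contractile apparatus, light chain regulation, SRF pathway, oxytocin receptor signalling, non-muscle counterparts, striated muscle isoforms, and basal epithelial, luminal epithelial, pericyte and vascular smooth muscle, endothelial, fibroblast and leukocyte markers) were chosen with earlier results of these data known. All 8 genes are named in each comparison, and from a list up to 4 genes of the largest difference among those called, plus any that moved against its list. The non-muscle counterparts depart from this. Their 2 genes higher in tumour CD29+CD24+ cells are not named, and all 5 lower in tumour Lin- cells are. Similar genes are the 10 of highest correlation, and 5 with group means removed. Genes outside this rule (Actn1, and Srf in the other populations) were chosen after their values were seen. Alternatives were the filter, averaging of probe sets, quantile normalization, the letter or description-number range as a block, only the groups compared, no trend, the actin control as a covariate, and leaving out tumours, pools or single arrays. Leaving out the CD29hiCD24+ array of tumour E was chosen after seeing the data.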

Additional observations from a re-analysis of the deposited data

Results flagged for a closer look

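In 4 of the 24 sets of 5 tumour arrays (8 genes in 3 populations) the highest or lowest value stood apart by Dixon's test, which chance does in about 1 of 20. Of these, 3 are CD29hiCD24+ values of tumour E, which therefore come from 1 array. Cnn1 read 2.15 there, where the next tumour had 5.49. Mylk read 4.48, where the next had 8.0. Tagln read 3.78, where the next had 8.39. The remaining one is Cnn1 in CD29+CD24+ cells of tumour D, at 2.72 against a next value of 2.27, both in the low band.

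The step from CD29+CD24+ to CD29hiCD24+ cells differed between tumour and normal tissue for all 8 genes by the interaction term in limma. In tumour minus normal, the log2 differences of the steps were -4.00 for Acta2, -6.85 for Actg2, -7.32 for Cnn1, -6.95 for Myh11, -7.47 for Myl9, -7.04 for Mylk, -6.71 for Tagln and -6.80 for Oxtr. Sizes for Cnn1, Myl9 and Oxtr depend on the low band, which holds their normal CD29+CD24+ values. Each normal pool had a larger step than each tumour for each gene.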

How the results depend on the processing

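The 8 calls in tumour against normal CD29hiCD24+ cells, in the gates of normal tissue and in the difference of the gate steps held under every alternative run. With the description-number block, each comparison of tumour with normal in 1 population rests on tumour E for its level. In tumour against normal CD29+CD24+ cells the 2 calls became 1 with averaged probe sets and 0 with the description-number block, and between 0 and 2 without a tumour or pool. Between the gates of tumours the 3 calls became 5 with the filter at the 60th percentile, 7 with the replicate block, 7 with the description-number block, 7 without the CD29hiCD24+ array of tumour E, 4 with averaged probe sets, quantile normalization or the actin covariate, 2 with only those groups, and between 1 and 6 without a tumour or pool. In normal CD29hiCD24+ against Lin- cells the 5 calls ran from 3 to 7 without a tumour or pool. In tumour CD29hiCD24+ against Lin- cells the 0 calls became 4 with the replicate block, 4 with the description-number block, 2 without the array of tumour E, and between 0 and 2 without a tumour or pool. The replicate block ended no call, and the calls it added are given above. Signs turned only among differences that were not called. In tumour against normal CD29+CD24+ cells these were Actg2 (-0.021 with quantile normalization, -0.30 with the description-number block, and -0.028 to 0.059 without a tumour or pool), Cnn1 (-1.13), Tagln (-1.91) and Oxtr (-0.66) with that block, and Myh11 (0.24 with the actin covariate, and -0.12 to 0.10 without a tumour or pool). Without a tumour or pool, Mylk ran from -0.19 to 0.83 in tumour CD29hiCD24+ against Lin- cells and Oxtr from -0.18 to 0.014 in tumour CD29+CD24+ against Lin- cells. Over all genes, the calls between the gates of tumours went from 565 to 1818 with the replicate block, 1264 with the description-number block and 151 with only those groups, and in tumour CD29hiCD24+ against Lin- cells from 1128 to 2400, 1876 and 465. Quantile normalization moved the share of calls that are higher from 40.5% to 53.6% in tumour against normal CD29hiCD24+ cells, from 53.8% to 69.6% between the gates of tumours and from 44.7% to 61.8% in tumour CD29hiCD24+ against Lin- cells, and moved the median of all genes by 0.12 in the difference of the gate steps. The causes were not tested. Signal near the low band limits Cnn1, Actg2 and Oxtr in most tumour arrays.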

Other observations

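Striated muscle isoforms were near the low band, with array means between 2.89 and 3.69. Of 11 measured, 4 were lower in tumour than in normal CD29hiCD24+ cells and 2 higher, beside 22.9% and 15.6% of all genes. The lower ones included Myl4 (-1.91 ± 0.24, adjusted p = 2.71e-06), Myh2 (-1.62) and the cardiac actin Actc1 (-1.40), and the higher ones were Myh1 (2.14) and Tnni2 (0.44). Myh2 and Actc1 averaged 2.18 and 2.60 in tumour CD29hiCD24+ cells, within the low band, so the sizes of their differences depend on that band. Their means were above the band in normal CD29hiCD24+ cells alone (3.80 and 3.99). The filter on low values may have kept them through that group only. In that case their direction was fixed in advance, here and between the normal gates. In the normal gland Myl4 (2.01), Myh2 (1.66), Actc1 (1.30) and Myh3 (0.57) were higher in CD29hiCD24+ than in CD29+CD24+ cells. Of these, Myh2, Actc1 and Myh3 averaged 2.14, 2.69 and 2.80 in normal CD29+CD24+ cells, again within the low band. Between these gates 21.3% of all genes were called higher.

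Among markers of other cells in tumour against normal CD29hiCD24+ cells, 6 of 11 luminal markers were lower, such as Pgr (-4.00), and Kit (3.22) was higher. One of 12 fibroblast markers, Fbln1 (4.36), was higher and 0 were lower, and 1 of 8 leukocyte markers, Cd68 (-1.62), was lower. The shares over all genes in that comparison were 22.9% lower and 15.6% higher, above those of the fibroblast and leukocyte markers. Fbln1 was also higher in tumour CD29+CD24+ (6.59) and Lin- cells (4.86).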
